A study of Mus musculus with 31 samples.

Results

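The 7 genes described here encode the machinery that loads peptides onto MHC class II molecules. They are H2-Aa, H2-Ab1 and H2-Eb1, which encode chains of the classical class II molecules, H2-DMa and H2-DMb1, which encode the peptide-exchange factor H2-DM, Cd74, which encodes the invariant chain, and Ciita, which encodes the class II transactivator. They were taken by gene symbol and gene identifier from count tables of 48795 genes in mouse hippocampi and 54532 genes in cultured mouse microglia, and all 7 were listed in both tables. The hippocampi came from 7 non-transgenic (Ntg) mice and 6 mice carrying the P301S human tau transgene, all 8 to 9 months old, with 3 females in each group. The microglia were grown from the brains of newborn wildtype (WT) or Cgas knockout (KO, Cgas-/-) pups with GM-CSF added to the mixed glia, and received vehicle, fibrils of tau, or DNA from herring testes (HT-DNA, a cGAS ligand), with 3 libraries for each of the 6 combinations. Per the study's methods, their RNA was taken 6 h after stimulation, so later responses were not measured. Cgas encodes the cytosolic DNA sensor cGAS. The study asked how pathogenic tau and cytosolic DNA act through cGAS on interferon signalling. The Cgas genotype of the hippocampal mice was not given in the labels, and the labels do not tie microglial libraries to preparations, though the study describes its replicates as independent samples. The p-values measure the spread between these libraries.

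MHC class II molecules display peptides from material taken up by a cell to CD4 T cells. The classical chains are assembled with the invariant chain, which keeps the groove occupied until proteases trim it in the endosome and H2-DM exchanges the last fragment for a peptide. Transcription of these genes depends on Ciita, which has no DNA-binding domain of its own and is recruited by factors that sit on X and Y boxes upstream of class II genes. Ciita is induced by interferon-gamma through factors that include Irf1, whereas its relative Nlrc5 acts on class I genes. In the brain, class II is low in resting microglia and higher in macrophages at the brain's borders.

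H2-DMa, H2-DMb1, H2-Ab1, H2-Aa and H2-Eb1 lie together in the MHC on chromosome 17 (GRCm38, GENCODE positions). H2-DMa spans chr17:34119541-34139101 on the plus strand, H2-DMb1 chr17:34153072-34160230 on the plus strand, H2-Ab1 chr17:34257689-34269419 on the plus strand, H2-Aa chr17:34282744-34287823 on the minus strand and H2-Eb1 chr17:34305867-34316674 on the plus strand. Ciita lies at chr16:10480059-10528418 on the plus strand, and Cd74 also lies outside the MHC. H2-DMa overlaps Brd2 on the opposite strand, which had 5697 to 8410 counts in the hippocampi beside 285 to 763 of H2-DMa. Ciita overlaps Dexi on the opposite strand, which had 758 to 1247 counts beside 0 to 84 of Ciita. H2-Eb1 overlaps the antisense gene Gm20513, which had at most 6 counts in any hippocampus and 0 in the microglia. Whether reads were counted by strand is not given in the sources used here, and without strand the reads of such overlapping genes cannot be told apart. H2-DMb1 shares 22.7% of its 50-base transcript windows with its neighbour H2-DMb2, so reads could be split between these 2 genes, and no window of the other chains was shared with another class II gene.

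The X and Y boxes are shown because they are the elements through which Ciita is recruited, and because 3 members and some of their relatives hold both. The windows below, from RefSeq on GRCm38.p6, are the 150 bases before the start site read 5′ to 3′ on the gene's strand, with the X box core GNAAC and the Y box TGATTGG in capitals.
H2-Aa: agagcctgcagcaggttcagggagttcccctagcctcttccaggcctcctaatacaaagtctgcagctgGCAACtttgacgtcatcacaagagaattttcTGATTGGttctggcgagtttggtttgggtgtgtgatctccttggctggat
H2-Eb1: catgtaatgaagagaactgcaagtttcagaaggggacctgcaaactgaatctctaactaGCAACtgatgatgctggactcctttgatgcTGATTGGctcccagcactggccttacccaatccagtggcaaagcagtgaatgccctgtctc
H2-DMb1: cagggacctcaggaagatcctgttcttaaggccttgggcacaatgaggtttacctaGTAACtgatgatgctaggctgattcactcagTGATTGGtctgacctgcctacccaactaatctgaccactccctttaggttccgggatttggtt
H2-Oa: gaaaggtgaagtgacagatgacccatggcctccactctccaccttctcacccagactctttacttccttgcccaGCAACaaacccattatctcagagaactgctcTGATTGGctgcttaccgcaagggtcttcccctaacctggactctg
These lie at chr17:34287824-34287973 (minus strand) for H2-Aa, chr17:34305717-34305866 (plus strand) for H2-Eb1, chr17:34153041-34153190 (plus strand) for H2-DMb1 and chr17:34092229-34092378 (plus strand) for H2-Oa, a chain of the H2-DM inhibitor H2-O. Both boxes were searched on either strand with 20 to 30 bases between them in windows of 250 bases before to 50 bases after the start. Such a pair was held by 106 of 32851 windows of all genes, or 0.323%. The gap was 26 bases in H2-Aa, 25 in H2-Eb1, 26 in H2-DMb1 and 26 in H2-Oa. The windows of H2-Eb2 and H2-Ob held the pair too, with gaps of 25 and 23 bases, and those of H2-DMa and H2-DMb2 did not. The H2-DMa windows before the start sites listed end at chr17:34122831 and chr17:34125517, in a gene that reaches 34139101. Start sites not listed for it were not searched. The H2-DMb2 window held TGATTGG, with TTAAC where that of H2-DMb1 has GTAAC. A match of letters is a description, not a bound site. H2-Ab1, Cd74 and Ciita had no entry in the promoter table.

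Libraries held 25953296 to 35779977 counts in the hippocampi and 17037459 to 25174764 in the microglia. Mapt, the tau gene, stood at 518 to 642 CPM (counts scaled to a common library size) in Ntg and 858 to 1123 CPM in P301S hippocampi, without overlap. The Cgas transcript, listed under its older symbol Mb21d1, ranged from 18.8 CPM upward in WT microglia and up to 7.45 CPM in KO microglia. Levels below are CPM with TMM-scaled library sizes.

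In the hippocampus the classical class II chains and the invariant chain were the members that moved most with the P301S transgene. By edgeR's quasi-likelihood test, 5 of the 6 members that passed the filter on low counts were higher in P301S mice at an adjusted p under 0.05 and none was lower, against 1.51% of all 16453 genes tested in either direction and 1.39% higher. The same 5 also passed with the study's minimum log2 fold change of 0.5, which 1.36% of genes did. The median log2 fold change of the 6 was 4.72, against 0.0013 over all genes. The rise was carried unevenly. Mice 29, 36 and 65 had levels of H2-Aa 70.3 to 90.5 times the Ntg median, mice 63 and 77 had levels 2.46 and 3.59 times it, and mouse 43 lay within the Ntg range. For none of the 7 members were the groups free of overlap, against 0.608% of all genes.

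H2-Aa, the alpha chain of I-A, ranged from 1.06 CPM through a median of 1.92 to 4.19 CPM in the 7 Ntg mice. In P301S mice it stood at 160 CPM in mouse 29, 174 in mouse 36, 1.40 in mouse 43, 4.71 in mouse 63, 135 in mouse 65 and 6.87 in mouse 77. The P301S mice other than mouse 43 were thus above every Ntg mouse, 5 of 6. The log2 fold change was 5.18 ± 0.996 (SE, adjusted p = 0.0303 by edgeR's quasi-likelihood test), and the exact two-sided permutation p of the CPM values was 0.0041, where the smallest p this design allows is 0.000583.

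H2-Ab1, the partner beta chain, ranged from 0.497 through 1.63 to 3.40 CPM in Ntg mice. It stood at 93.1 CPM in mouse 29, 88.8 in mouse 36, 0.771 in mouse 43, 3.66 in mouse 63, 74.7 in mouse 65 and 4.41 in mouse 77. The order of mice was that of H2-Aa except that mouse 29 came first. The log2 fold change was 4.76 ± 0.97 (SE, adjusted p = 0.0309, edgeR).

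H2-Eb1, the beta chain of I-E, ranged from 0.746 through 1.66 to 3.20 CPM in Ntg mice and stood at 86.1, 91.2, 1.19, 3.03, 76.4 and 5.07 CPM in P301S mice 29, 36, 43, 63, 65 and 77. Here mouse 63 fell inside the Ntg range, so 4 of 6 P301S mice lay above it. The log2 fold change was 4.69 ± 0.93 (SE, adjusted p = 0.0303, edgeR).

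Cd74 followed the same pattern. It ranged from 2.49 through 6.69 to 10.99 CPM in Ntg mice and stood at 481, 469, 3.89, 14.3, 354 and 22.9 CPM in the 6 P301S mice in the same order, 5 of them above every Ntg mouse. The log2 fold change was 5.14 ± 0.99 (SE, adjusted p = 0.0303, edgeR), and the largest P301S value was 124 times the smallest, against 4.42 times within Ntg.

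The 2 chains of H2-DM differed in how far they moved. H2-DMb1 ranged from 0.530 through 0.777 to 1.27 CPM in Ntg mice and stood at 6.01, 8.40, 1.23, 1.32, 6.97 and 2.89 CPM in P301S mice, with a log2 fold change of 2.41 ± 0.44 (SE, adjusted p = 0.0299, edgeR). H2-DMa ranged from 10.8 through 13.7 to 15.2 CPM in Ntg mice and stood at 22.6, 26.1, 14.05, 11.4, 25.6 and 14.5 CPM in P301S mice. Mice 29, 36 and 65 again lay above all Ntg mice, and the other P301S mice lay among them. Its log2 fold change of 0.50 ± 0.18 (SE, 95% interval 0.14 to 0.86) did not pass (adjusted p = 0.182, edgeR).

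Ciita was too low for the filter. The 7 Ntg libraries held 0 to 9 counts, where a count of 0 allows up to 3, and the P301S libraries held 84 in mouse 29, 55 in mouse 36, 1 in mouse 43, 7 in mouse 63, 15 in mouse 65 and 8 in mouse 77. Mice 29, 36 and 65 were the 3 above every Ntg mouse. The exact two-sided permutation p of its CPM was 0.0152. Mouse 65 stood at 5.23 times the Ntg median for Ciita, against 70.3 times for H2-Aa, whereas mouse 29 stood at 25.6 and 83.3 times.

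**Figure D1:**
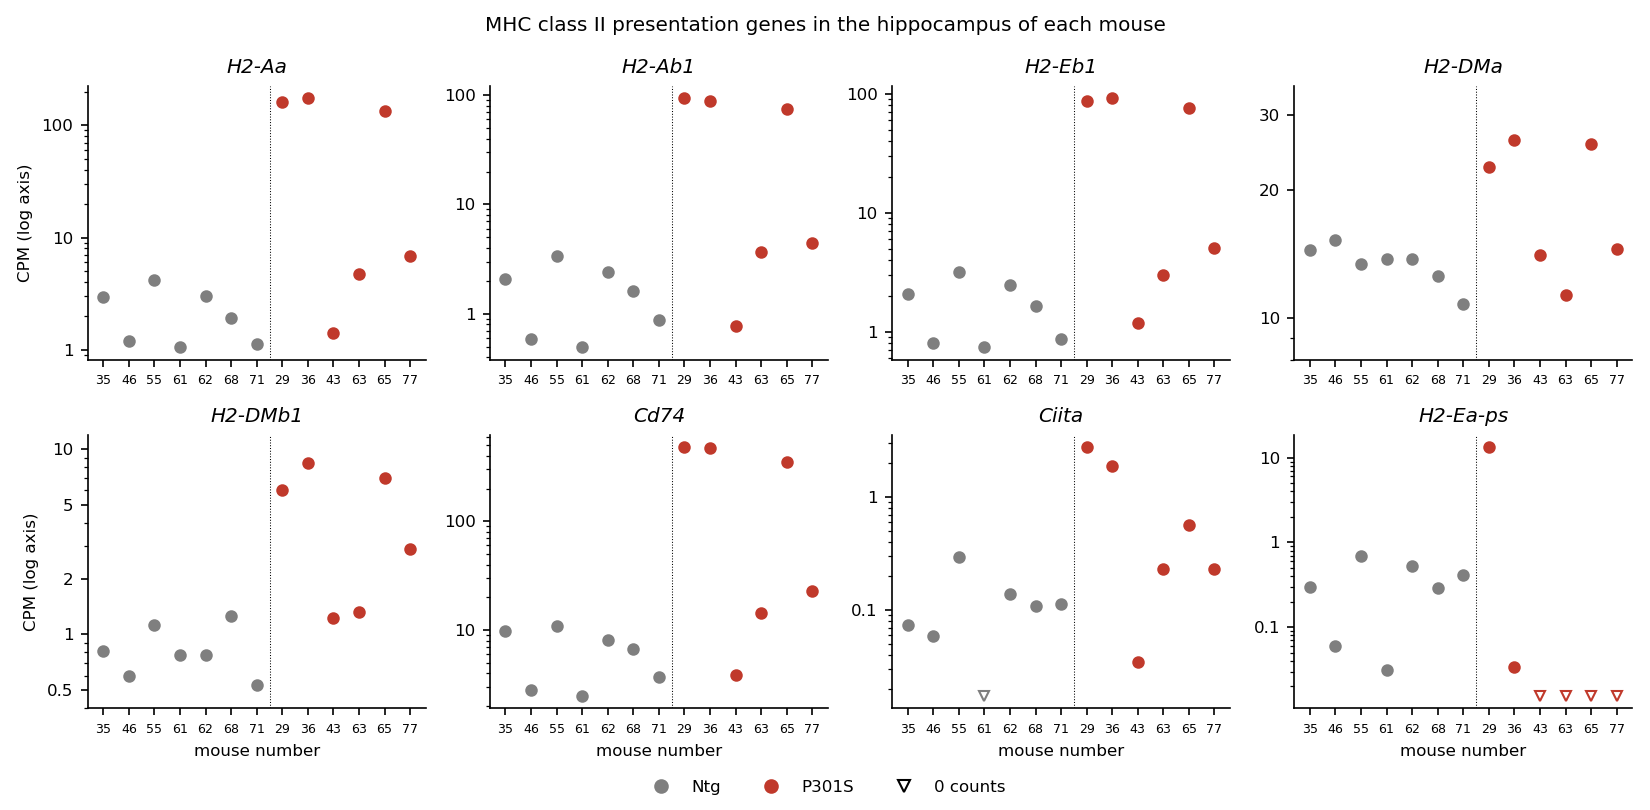
Normalized level of the 7 class II genes and of H2-Ea-ps in each hippocampus, in CPM on a log axis, with 1 point per mouse (grey, 7 Ntg; red, 6 P301S) and open triangles for libraries with 0 counts. Mice 29, 36 and 65 stand apart in each member, mouse 43 lies within the Ntg range, and H2-Ea-ps is high in mouse 29 alone among the P301S mice.

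Across the 13 hippocampi the members moved together, with a median Pearson r of log2 CPM over the 21 pairs of 0.940 (0.762 to 0.999). Within the 7 Ntg mice the median was 0.642 and within the 6 P301S mice 0.953. The lowest values were those of pairs with H2-DMa, at -0.26 to 0.21 within Ntg mice. The genes outside the members most like Cd74 over the 13 mice were Lyz2 (lysozyme, r = 0.986), Ctsd (cathepsin D, 0.985), Gusb (beta-glucuronidase, 0.976), Itgb5 (an integrin chain, 0.975) and Ifngr1 (an interferon-gamma receptor chain, 0.975).

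Of the other class II genes, H2-Oa and H2-DMb2 were higher in P301S hippocampi, 2 of the 3 that passed the filter. H2-Oa had 7 to 24 counts in Ntg mice and 132, 139, 26, 19, 201 and 49 counts in P301S mice 29, 36, 43, 63, 65 and 77, with a log2 fold change of 2.78 ± 0.54 (SE, adjusted p = 0.0303, edgeR). H2-DMb2 had 3 to 11 counts in Ntg and 9 to 46 in P301S mice, with a log2 fold change of 1.93 ± 0.45 (SE, adjusted p = 0.0488, edgeR). H2-Ob, which encodes the other H2-O chain, did not pass (1.0003 ± 0.42, SE, adjusted p = 0.256, edgeR). H2-Eb2 had at most 1 count in any library.

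H2-Ea stood apart from all of these. The alpha chain of I-E is made in some mouse strains and not in C57BL/6, whose annotation lists it as the pseudogene H2-Ea-ps. All 7 Ntg libraries held H2-Ea-ps counts (8, 2, 21, 1, 15, 8 and 11 in mice 35, 46, 55, 61, 62, 68 and 71), or 2.94 to 36.7 per 100 H2-Aa counts. Mouse 29 held 404, or 8.35 per 100 H2-Aa counts. Mouse 36 held 1 beside 5063 H2-Aa counts, mouse 65 held 0 beside 3560, and mice 43, 63 and 77 held 0 beside 40, 143 and 240. So mice 36 and 65 matched mouse 29 in the other class II chains and not in this one. Counts were thus present in 7 of 7 Ntg mice and at 0 in 4 of 6 P301S mice. The exact two-sided permutation p of the difference in mean CPM was 0.705, with mouse 29 carrying the P301S mean. A test of means set by 1 mouse cannot decide whether the presence of counts differed between the groups, and that was not tested. The MHC haplotype and strain background of the mice were not given. Whether they differ between the groups was not tested, and such a difference would bear on every comparison of P301S with Ntg mice given here.

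The tested regulators of Ciita and the factors that bind class II promoters moved less than the members called. Ciita itself had a log2 fold change of 3.04 ± 0.79 (SE, adjusted p = 0.0720, edgeR) with no filter on low counts. None of the 7 factors that bind class II promoters (the Rfx, Nfy and Creb1 genes) passed in either direction, with a median log2 fold change of 0.02. Of the 12 regulators of Ciita tested, 1 was higher, Irf8, a myeloid interferon regulatory factor (log2 fold change 1.56 ± 0.33, SE, adjusted p = 0.0327, edgeR). Irf1 did not pass, at 0.55 ± 0.21 (SE, adjusted p = 0.194, edgeR). Ifng, which encodes interferon-gamma, was at 0 counts in 12 of the 13 hippocampi and at 2 counts in mouse 65. Of the 7 processing and turnover genes, Ctss, the protease that trims the invariant chain (1.69 ± 0.33, SE, adjusted p = 0.0303), and Ifi30, a lysosomal thiol reductase (1.45 ± 0.34, SE, adjusted p = 0.0488), were higher by edgeR.

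Of 7 class I presentation genes tested, 4 were higher in P301S hippocampi: H2-D1 (log2 fold change 2.63 ± 0.31, SE, adjusted p = 0.0022), Nlrc5 (2.17 ± 0.42, adjusted p = 0.0303), H2-K1 (1.95 ± 0.35, adjusted p = 0.0281) and B2m (1.48 ± 0.31, adjusted p = 0.0343), all by edgeR. H2-K1 and H2-D1 were above every Ntg mouse in CPM in all 6 P301S mice, mouse 43 included. Mouse 77 stood at 5.84 times the Ntg median for Nlrc5 and 5.10 times for H2-D1, against 3.59 times for H2-Aa and 3.43 times for Cd74. Mouse 36 stood at 3.73 times for Nlrc5 and 90.5 times for H2-Aa. The 2 mice were therefore ordered one way for Nlrc5 and the other way for class II. H2-D1, H2-K1 and B2m were ordered as class II was. They stood at 7.40, 4.20 and 3.21 times the Ntg median in mouse 36 and at 5.10, 3.22 and 2.73 times in mouse 77.

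**Figure D2:**
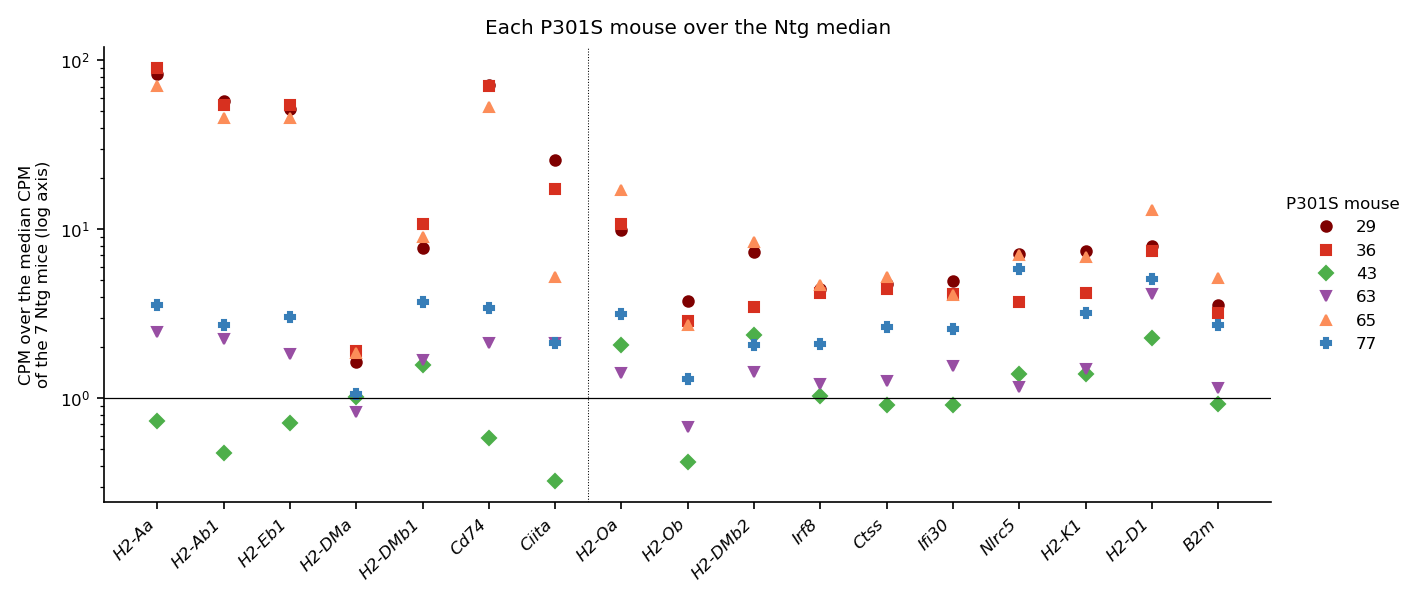
CPM of each of the 6 P301S mice over the median of the 7 Ntg mice, on a log axis, for the 7 class II genes (left of the dotted line) and for other class II, regulatory, processing and class I genes. Mice 29, 36 and 65 lie at 70.3 to 90.5 times the median for H2-Aa and at 4.20 to 7.41 times for H2-K1, while mouse 43 lies below 1 for H2-Aa and at 2.28 times for H2-D1.

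Markers of the cells that carry class II moved with these results in part. In bulk tissue, more cells of a type and more RNA per cell cannot be told apart. The summed level of 9 homeostatic microglia genes was 756, 764 and 760 CPM in mice 29, 36 and 65, 560 in mouse 77, 401 in mouse 63 and 353 in mouse 43, against 362 to 446 in Ntg mice. With the mean log2 level of this list as a covariate, no member passed, and the log2 fold changes were 2.31 for H2-Aa, 2.25 for Cd74 and 1.43 for H2-DMb1 (adjusted p = 0.282, 0.278 and 0.0878, edgeR). The disease-associated microglia list had 6 of 10 genes higher. Border macrophage genes (Mrc1, Lyve1, Cd163, Pf4, Ms4a7 and F13a1) summed to 1.77 to 10.6 CPM in Ntg and 1.54 to 7.26 CPM in P301S mice, and the highest sum belonged to Ntg mouse 55, which also had the highest Ntg level of H2-Aa, H2-Ab1, H2-Eb1, Cd74 and Ciita. B cell genes summed to at most 1.22 CPM, and T cell genes to 2.17 to 3.82 CPM in Ntg and 1.38 to 5.81 in P301S mice. Dendritic cell genes were highest in mouse 63 (40.9 CPM, against 12.8 to 18.7 in the others), whose class II level was near the Ntg range. The astrocyte list also stood higher in mice 29, 36 and 65 (7533 to 8507 CPM) than in Ntg mice (4541 to 5382). Of its genes only Gfap passed between P301S and Ntg mice (log2 fold change 2.22 ± 0.37, SE, adjusted p = 0.0206, edgeR), and Slc1a2 stood at 0.03 ± 0.11. The part of these lists in the class II result was not tested beyond the covariate.

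The calls in the hippocampus rested on a small margin. The count of members called was 5 without Ntg mouse 55 or P301S mouse 43 or 77 and 6 without P301S mouse 63, and it was 0 without any 1 of Ntg mice 35, 46, 61, 62, 68 and 71 or P301S mice 29, 36 and 65. The log2 fold change of H2-Aa then stayed between 4.80 and 5.44, with an adjusted p of at most 0.0859.

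In cultured WT microglia H2-Ab1 and Cd74 were called higher with tau fibrils and H2-DMa lower with HT-DNA. In KO microglia H2-DMb1 was called higher with tau. Of all genes 28.0%, 47.4% and 16.7% were called in these comparisons, in that order. No member's response was called as differing between genotypes. H2-DMa had log2 differences of -0.23 with tau in WT and -0.31 with tau in KO cells, beside -0.27 with HT-DNA in WT cells. In the microglia H2-Ab1, H2-Eb1, H2-DMa, H2-DMb1 and Cd74 passed the filter. H2-Aa had 2 to 11 counts in WT and 0 to 6 in KO libraries, and Ciita had 2 to 13 in WT and 0 to 4 in KO libraries, so neither was tested and a difference in them was not detectable at this depth with the filter in place.

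With tau fibrils, 2 of the 5 tested members rose in WT microglia and none fell, against 28.0% of 13675 genes in either direction and 15.8% higher. None of the 5 passed with the study's minimum log2 fold change of 1, which 3.41% of genes did. H2-Ab1 had 43, 36 and 21 counts with vehicle and 44, 74 and 45 with tau, or 1.53 ± 0.39 and 2.74 ± 0.65 CPM (SD, n = 3). Every tau library was above every vehicle library, as groups without overlap were for 41.4% of genes. The log2 fold change was 0.83 ± 0.25 (SE, adjusted p = 0.0113, edgeR). Cd74 stood at 9.29 to 10.7 CPM with vehicle and 12.1 to 14.2 with tau, also without overlap, with a log2 fold change of 0.42 ± 0.14 (SE, adjusted p = 0.0239, edgeR). Both calls were lost without vehicle replicate 3 or tau replicate 2 (H2-Ab1 0.67 and 0.61, adjusted p = 0.0621 and 0.109, edgeR). That of Cd74 was also lost without vehicle replicate 2 or tau replicate 1 (adjusted p = 0.0949 and 0.0858, edgeR). H2-Eb1 (0.08 ± 0.51, SE), H2-DMa (-0.23 ± 0.11) and H2-DMb1 (0.00 ± 0.07) did not pass.

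In the same libraries all 7 class I genes rose. Nlrc5 had 2699, 1885 and 1901 counts with vehicle and 5069, 5163 and 5340 with tau (log2 fold change 1.39 ± 0.09, SE). Irf1 rose by 1.08 ± 0.09 on the log2 scale, and 9 of 12 tested regulators of Ciita were higher. None of the 7 promoter-binding factors passed with tau in WT cells. Rfx5, a subunit of the factor that binds the X box, rose with HT-DNA in WT cells (0.59 ± 0.10, SE, adjusted p = 2.5e-05, edgeR) and with tau in KO cells (0.44 ± 0.11, SE, adjusted p = 0.0043, edgeR). With tau in WT cells it stood at 0.27 ± 0.11 (SE, adjusted p = 0.0604, edgeR). Its tau response did not differ detectably between genotypes (0.18 ± 0.15, SE, adjusted p = 0.582, edgeR's interaction test). Ifng was at 0 counts in all 18 microglial libraries.

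With HT-DNA, 1 of the 5 members changed in WT microglia, against 47.4% of genes. H2-DMa fell by 0.27 on the log2 scale (SE 0.11, adjusted p = 0.0497, edgeR), with 14.7 to 17.8 CPM with vehicle and 12.2 to 13.9 CPM with HT-DNA, without overlap, as for 54.5% of genes. With the minimum fold none of the 5 passed, against 8.08% of genes. The call was lost with RLE scaling, with DESeq2, with a replicate block, when the other groups were left out, and without vehicle replicate 3 or HT-DNA replicate 2 or 3. H2-Ab1 (0.36 ± 0.27, SE) and Cd74 (0.19 ± 0.14, SE) did not pass. All 7 class I genes rose, Nlrc5 by 2.06 ± 0.09 and Tap1, a peptide transporter chain, by 1.73 ± 0.09 on the log2 scale (SE). Between tau and HT-DNA no member differed in WT cells, against 34.9% of genes called by edgeR. At an unadjusted p under 0.05 none of the 5 passed either, against 42.7% of genes, and DESeq2 called none. Nlrc5 was lower with tau than with HT-DNA by 0.66 ± 0.08 (SE, log2 scale). The intervals of the tau minus HT-DNA difference ran from -0.00 to 0.95 for H2-Ab1 and from -0.05 to 0.50 for Cd74 on the log2 scale.

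**Figure D3:**
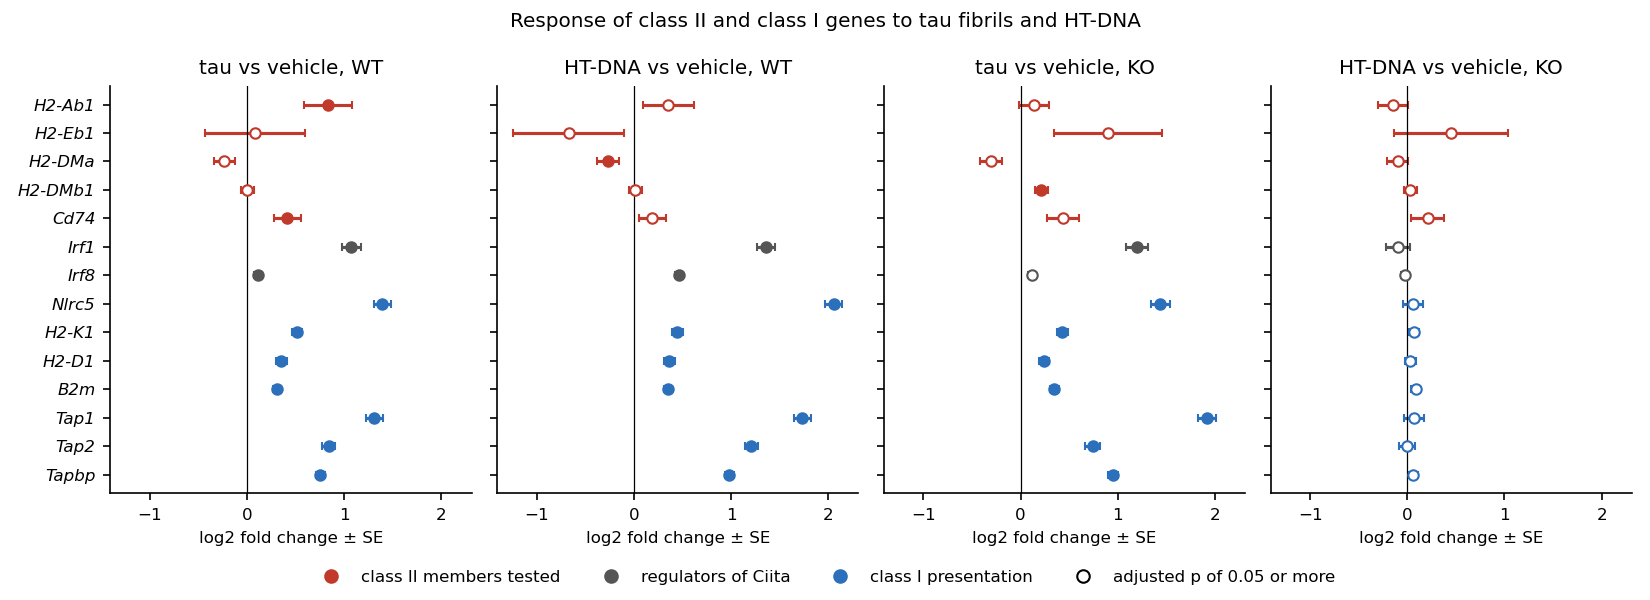
Log2 fold change with its SE (3 libraries per group, 1 fit over 18 libraries) on tau fibrils or HT-DNA in WT and KO microglia, for the 5 tested class II genes (red), 2 regulators of Ciita (grey) and 7 class I genes (blue), with filled points for an adjusted p under 0.05. Class I genes lie to the right of 0 in the first 3 comparisons, with Nlrc5 at 1.39 and 2.06 in WT cells. Of the class II genes, H2-Ab1 lies at 0.83 with tau in WT cells and H2-DMb1 at 0.00.

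In KO microglia, tau raised 1 of the 5 members, H2-DMb1, against 16.7% of genes in either direction. It had 656, 712 and 765 counts with vehicle and 971, 991 and 1022 with tau, or 35.8 ± 1.87 and 41.4 ± 1.41 CPM (SD, n = 3), a log2 fold change of 0.21 ± 0.07 (SE, adjusted p = 0.0277, edgeR). With the minimum fold none passed, against 2.73% of genes. The vehicle and tau libraries did not overlap for H2-DMb1, Cd74 and H2-DMa, against 29.5% of genes. The call of H2-DMb1 was lost without KO vehicle replicate 3 or KO tau replicate 1 or 2. Cd74 had a log2 difference of 0.44 ± 0.16 (SE, adjusted p = 0.0675, edgeR), close to its value in WT cells, and H2-DMa of -0.31 ± 0.11 (SE, adjusted p = 0.0595, edgeR). H2-DMa passed as lower in 4 of 5 alternative fits, namely RLE scaling, DESeq2, no filter and the compared groups alone, with an adjusted p of 0.0368 to 0.0475, and not with the replicate block (adjusted p = 0.0730). Irf1 (1.20 ± 0.11, SE) and Nlrc5 (1.44 ± 0.10) rose with tau in these cells. HT-DNA changed no member in KO cells, against 1.32% of genes by edgeR, and at an unadjusted p under 0.05 none passed either, against 12.3% of genes. DESeq2 called none. The log2 differences with HT-DNA were -0.15 ± 0.16 (SE) for H2-Ab1 and 0.21 ± 0.17 for Cd74.

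The treatment effects did not differ detectably between genotypes for any tested member. By edgeR's interaction test 0 of 5 passed with tau, against 6.91% of genes, and 0 of 5 with HT-DNA, against 34.0%. At an unadjusted p under 0.05, which 19.9% of genes reached with tau and 42.2% with HT-DNA, 2 of 5 passed with tau and 0 of 5 with HT-DNA. These 2 were H2-Ab1 (-0.69 ± 0.29, SE, log2 scale, adjusted p = 0.168, edgeR) and H2-DMb1 (0.21 ± 0.097, SE, adjusted p = 0.223, edgeR). DESeq2 called none in either.

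The largest differences of class II genes in culture lay between the genotypes, and they went in opposite directions. H2-Ab1 was higher in KO than WT microglia under all 3 treatments. With vehicle, KO libraries held 211, 202 and 212 counts and WT libraries 43, 36 and 21, or 10.5 ± 1.22 and 1.53 ± 0.39 CPM (SD, n = 3). The log2 difference, KO over WT, was 2.75 ± 0.20 with vehicle, 2.06 ± 0.18 with tau and 2.25 ± 0.20 with HT-DNA (SE, adjusted p = 5.5e-12, 2.2e-10 and 1.1e-10, edgeR). Cd74 was lower in KO microglia, by -1.10 ± 0.16, -1.07 ± 0.14 and -1.08 ± 0.15 on the log2 scale (SE, adjusted p = 1.2e-06, 4.0e-07 and 5.0e-07, edgeR). With vehicle it had 67, 104 and 109 counts in KO and 242, 215 and 185 in WT libraries. Neither gene's WT and KO libraries overlapped under any treatment, as for 58.6% of genes with vehicle, 57.4% with tau and 66.6% with HT-DNA.

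Of the 5 tested members, 2 differed between genotypes with vehicle, 3 with tau and 2 with HT-DNA, against 52.0%, 51.3% and 63.2% of all genes. The third member with tau was H2-DMb1 (0.28 ± 0.07, SE, adjusted p = 0.0012, edgeR). H2-Eb1 and H2-DMa did not pass under any treatment. H2-Eb1 differed by -0.79 ± 0.57 with vehicle and H2-DMa by -0.16 ± 0.11 (SE, log2 scale).

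The partner chains did not follow H2-Ab1. H2-Aa, which pairs with it, had 10, 7 and 3 counts in WT and 0, 0 and 2 counts in KO libraries with vehicle, and Ciita had 7, 3 and 6 counts in WT and 0, 0 and 1 in KO libraries. With no filter on low counts, both were lower in KO cells with vehicle by edgeR (adjusted p = 0.0156 for H2-Aa and 0.0152 for Ciita), and Ciita with tau (adjusted p = 0.0322). H2-Ob, whose gene neighbours H2-Ab1 in the MHC, was also higher in KO cells under all 3 treatments. It had 10, 12 and 23 counts in WT and 28, 24 and 34 in KO libraries with vehicle. The log2 difference was 1.002 ± 0.38 with vehicle, 2.23 ± 0.41 with tau and 1.08 ± 0.43 with HT-DNA (SE, adjusted p = 0.0262, 4.2e-05 and 0.0279, edgeR). H2-Oa and H2-DMb2 did not pass.

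The level of H2-Ab1 therefore ran in the order KO tau (11.6 ± 1.95 CPM), KO vehicle (10.5 ± 1.22), KO HT-DNA (9.52 ± 1.37), WT tau (2.74 ± 0.65), WT HT-DNA (1.99 ± 0.63) and WT vehicle (1.53 ± 0.39, all SD, n = 3). That of Cd74 ran WT tau (13.3 ± 1.08), WT HT-DNA (11.4 ± 0.95), WT vehicle (9.995 ± 0.71), KO tau (6.34 ± 0.82), KO HT-DNA (5.45 ± 1.46) and KO vehicle (4.65 ± 0.85). Neighbours within a genotype overlapped or lay within the sum of their SDs in both orders, and the step from KO to WT lay outside it. H2-DMb1 ran from 34.1 ± 1.92 CPM in WT tau to 41.4 ± 1.41 in KO tau, and H2-DMa from 11.4 ± 1.38 in KO tau to 15.8 ± 1.75 in WT vehicle.

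**Figure D4:**
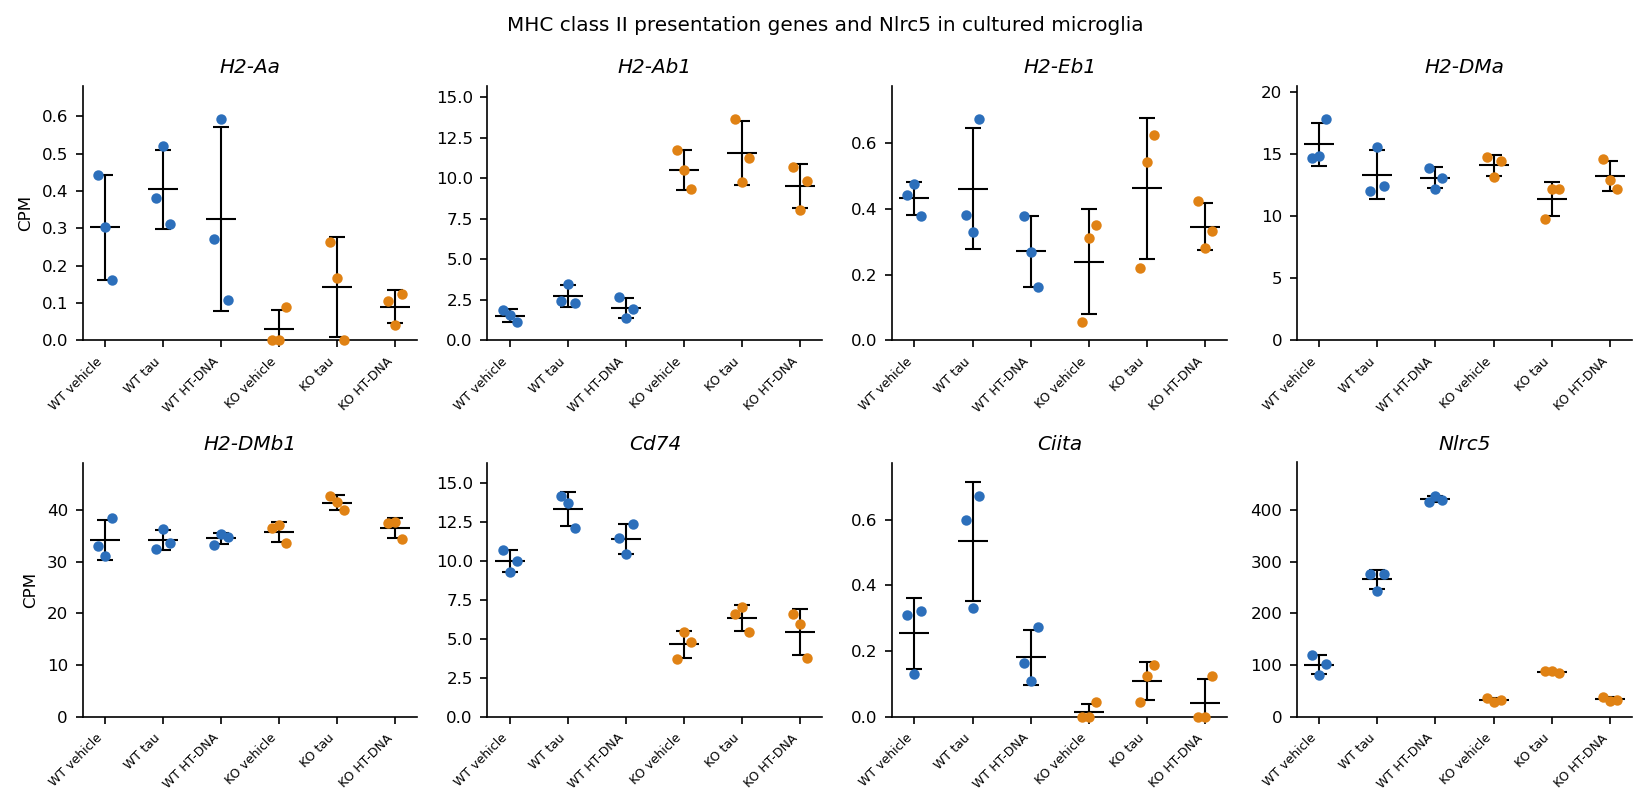
CPM of the 7 class II genes and of Nlrc5 in each of the 18 microglial libraries (blue, WT; orange, KO), with the mean and SD of the 3 libraries of a group as black bars, on linear axes from 0. H2-Ab1 is higher and Cd74 lower in all KO libraries, H2-DMa group means lie between 11.4 and 15.8 CPM and those of H2-DMb1 between 34.1 and 41.4 CPM, and Nlrc5 rises with tau and HT-DNA in WT cells.

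The WT and KO cultures differed in much else. Homeostatic microglia genes were lower in KO cells with vehicle in 7 of 8 tested and class I genes in 5 of 7. Of all genes 52.0% were called there in either direction. Irf1 was lower, at -1.49 ± 0.11 on the log2 scale (SE). Of the promoter-binding factors, Rfx5 was lower in KO cells with vehicle (-0.45 ± 0.11, SE, log2 scale) and Nfyb, a subunit of the factor that binds the Y box, higher (0.68 ± 0.09, SE). The disease-associated microglia list summed to 62156 to 62942 CPM in WT and 72479 to 74014 in KO vehicle libraries, and the astrocyte list to 3.99 to 4.80 and 5.23 to 6.86 CPM. Both sums mix directions. Of the astrocyte genes, Aldoc (1.03 ± 0.20, SE, log2 scale) and Slc1a2 (1.63 ± 0.70) were higher in KO cells and Gfap was lower (-2.14 ± 0.60). Of the disease-associated genes, Cst7 (1.65 ± 0.08) was among those higher and Itgax (-0.40 ± 0.05) was lower. The border macrophage list summed to 413 to 432 CPM in WT and 210 to 214 in KO vehicle libraries. The fibroblast and endothelium list summed to 2.52 to 4.31 CPM in WT and 0.208 to 0.279 in KO libraries, and the oligodendrocyte list to 84.4 to 95.1 and 51.5 to 54.4 CPM. Dendritic cell genes summed to 4.15 to 5.71 CPM in WT and 4.69 to 7.81 in KO, and B cell genes to at most 0.708 CPM. The genotype and the litters or cultures the cells came from cannot be told apart, since the labels give no link between WT and KO preparations.

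Within the microglia the members did not move as a block. Over the 21 pairs of members, Pearson r of log2 CPM in 18 libraries ran from -0.819 to 0.766 with a median of -0.02, against a median of 0.940 in the hippocampi. H2-Aa, Ciita and H2-Eb1 had at most 11, 13 and 16 counts in a microglial library, so pairs with them are limited by low counts. The medians of the 2 experiments are therefore not like for like. The lowest r, -0.819, was that of H2-Ab1 and Cd74. The 18 libraries fall into 2 genotypes, and correlations within a genotype were not computed. The genes most like Cd74 in culture were Src (r = 0.955), Rnf10 (0.953), Man1a2 (0.951), Fcho2 (0.950) and Madcam1 (0.946), none of them among the 5 most like it in the hippocampi.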

How the data were processed

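RNA-seq read counts per gene were analysed for 13 hippocampi and 18 microglial libraries. The counts are whole numbers as deposited by the authors, with reads assigned to Ensembl genes on GRCm38 per the labels, and the submitters' processing notes name edgeR and limma. The aligner and counting program are not given in the sources used here. Spreadsheet-damaged gene names were matched by identifier. No column of per-sample values was left unused.

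Groups came from the labels. Each table was fitted separately with edgeR 4.0.16 (R 4.3.3) by the quasi-likelihood test, with TMM scaling, the filterByExpr filter (minimum count 10) and Benjamini-Hochberg adjustment over all genes tested. The 6 microglial groups shared 1 fit. Calls are at an adjusted p under 0.05. Exact permutation tests enumerated all 1716 splits of the hippocampi. Scripts were tested on simulated data. Libraries held 17037459 to 35779977 counts, and intervals are 95% intervals of the fitted value.

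The 7 genes and all lists were chosen with earlier results of these data known. All 7 are named throughout. From each other list the rule named at most the 4 called genes with the largest change, plus Nlrc5, Irf1, Ifng and H2-Ea-ps, and the 5 genes most correlated with Cd74. A further gene of the rule is not reported here. Genes named outside it (H2-Ob, H2-Eb2, H2-DMb2) belong to the short list of other class II genes. Alternatives were DESeq2 1.42.0, RLE scaling, no filter, a minimum fold, sex or microglial covariates, a replicate block, the compared groups alone, and leaving out each library. The authors' single-nucleus and human data are not analysed here.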

Additional observations from a re-analysis of the deposited data

Results flagged for a closer look

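H2-Ea-ps stood at 13.3 CPM in P301S mouse 29, far from the other 5 P301S mice, which had 0 or 1 count. H2-Eb2 stood at 0.0286 CPM in P301S mouse 77, which is a single count, where the other 5 P301S mice had 0. These were 2 of 24 gene and group combinations examined for a library far from its group. The rule's nominal rate of about 1 in 20 does not hold where the other libraries are at 0, since a single count is then flagged. How often chance gives such a flag here was not tested.

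Irf1 and Nlrc5, regulators of class II and class I, responded differently to HT-DNA in WT and KO microglia by edgeR's interaction test, as did 34.0% of all genes. The HT-DNA response differed by -1.46 for Irf1 (adjusted p = 1.6e-08) and by -1.99 for Nlrc5 (adjusted p = 3.3e-12). With tau neither was flagged, and the response of Irf1 differed by 0.12 ± 0.15 (SE, adjusted p = 0.708, edgeR). No class II member had a called interaction.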

How the results depend on the processing

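In P301S hippocampi the count of members called was 5 with the minimum fold, RLE scaling, no filter, DESeq2 and a sex covariate, 0 with the homeostatic microglia covariate, and 0 to 6 without single mice. The fold changes of the 6 tested members stayed positive in each of these. Over all genes the count called was 249, against 911 with DESeq2, 138 with sex, 32 with the microglial covariate and 14 to 946 without single mice. In microglia the counts over all genes with the minimum fold were 467 of 3829 for tau and 1105 of 6488 for HT-DNA in WT, 447 of 4768 between them, 374 of 2282 for tau and 3 of 180 for HT-DNA in KO, 1365 of 7110, 1421 of 7022 and 2482 of 8646 between genotypes, and 132 of 945 and 857 of 4648 for the interactions. HT-DNA in KO cells gave 312 with no filter and 54 to 125 without single libraries, and the tau interaction 589 to 1122.

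In microglia the minimum fold gave 0 members for tau in WT, HT-DNA in WT and tau in KO cells. HT-DNA in WT cells gave 0 with RLE scaling, DESeq2, a replicate block and only the compared groups. Tau in KO cells gave 2 with RLE scaling, DESeq2 and only the compared groups, and 3 with no filter, H2-DMa being called lower in each of these and Cd74 higher with no filter. KO against WT with vehicle gave 4 with no filter, which adds H2-Aa and Ciita to the genes tested. Without single libraries the counts were 0 to 2 for tau in WT, 0 to 1 for HT-DNA in WT, 0 to 2 for tau in KO, 0 to 1 for tau against HT-DNA, 3 to 4 for KO against WT with vehicle and 3 to 5 with tau. The calls of H2-Ab1 and Cd74 between genotypes remained in every such fit.

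Over the alternatives run, changes of sign occurred in uncalled differences only, and the cause was not tested. H2-DMa between genotypes with HT-DNA became -0.029 with RLE scaling, -0.028 with DESeq2 and -0.029 with only the compared groups. The HT-DNA interaction became -0.023, -0.022 and -0.046 for H2-DMb1 and -0.017, -0.013 and -0.038 for Cd74. H2-DMb1 with tau in WT cells became -0.0065 with no filter, and H2-Eb1 between genotypes with tau became -0.00039 with DESeq2. Without single libraries the ranges were -0.29 to 0.28 for H2-Eb1 and -0.062 to 0.092 for H2-DMb1 with tau in WT, -0.050 to 0.10 for H2-DMb1 with HT-DNA in WT and -0.012 to 0.075 in KO, and -0.096 to 0.088 for H2-DMa and -0.059 to 0.0080 for H2-DMb1 between tau and HT-DNA. They were -0.25 to 0.39 for H2-Eb1 between genotypes with tau and -0.084 to 0.068 for H2-DMa with HT-DNA. The tau interaction ranged from -0.17 to 0.058 for H2-DMa and -0.10 to 0.14 for Cd74, and the HT-DNA interaction from -0.072 to 0.082 for H2-DMb1 and -0.17 to 0.23 for Cd74.

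Replicate numbers did not pair the microglial libraries (correlation of deviations -0.12 to 0.15 for the same number, -0.12 to 0.13 for different numbers). With the replicate block the H2-DMa difference on HT-DNA in WT cells was -0.27 (adjusted p = 0.0603, edgeR), and the counts of members called in the other microglial comparisons were unchanged. No paired analysis was possible because the 2 hippocampal groups share no replicate numbers. Ciita and H2-Aa in microglia are limited by depth.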
